A study of Mus musculus with 10 samples.

Results

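Matrix metalloproteinases (MMPs), the related ADAMTS and ADAM proteases and the tissue inhibitors of metalloproteinases (TIMPs) were examined in the neural retina of BALB/c mice, which are albino and were 2 months old. The 10 genes are *Mmp2*, *Mmp3*, *Mmp9*, *Mmp14*, *Timp1*, *Timp2*, *Timp3*, *Adamts1*, *Adamts4* and *Adam17*. They were taken by gene name from a table of 54532 genes, and all 10 were found. According to the sample labels, all mice had 12 hr of darkness before 1 day of either normal light at 200 lux (NL) or intense light at 15000 lux (LD). RNA-seq was done on 5 NL retinas, numbered 1, 4, 5, 7 and 8, and on 5 LD retinas, numbered 1, 4, 6, 7 and 8. The study used the 1-day exposure to look for genes induced by light damage. The labels do not give the sex of the mice or say whether each sample is 1 retina, so the p-values measure only the spread between these samples, which may be technical.

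MMPs are zinc-dependent proteases that cleave collagens, laminins and other matrix proteins, and some of them also release growth factors. ADAMTS proteases are secreted and cut matrix proteoglycans, while ADAM proteases sit in the membrane and shed the outer parts of other membrane proteins. TIMPs bind the active site of these enzymes and block it. In the retina this system is known for remodelling the matrix around photoreceptors and blood vessels, and mutations of *TIMP3* cause Sorsby fundus dystrophy in people.

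RefSeq windows (GRCm38.p6) were found for 7 of the 10 genes, and the 250 bases before the annotated start were searched on both strands for letters bound by AP-1 (TGACTCA), STAT factors (TTCNNNGAA) and ETS factors (AGGAAG) and for a TATA box (TATAAA). The windows of the 3 genes called higher after LD whose RefSeq start is also the start in the deposited table are printed 5′ to 3′ on the gene's strand, with matches in capitals. They lie at chr9:7445572-7445821 on the plus strand for *Mmp3*, chrX:20869916-20870165 on the plus strand for *Timp1* and chr16:85803114-85803363 on the minus strand for *Adamts1*.
Mmp3: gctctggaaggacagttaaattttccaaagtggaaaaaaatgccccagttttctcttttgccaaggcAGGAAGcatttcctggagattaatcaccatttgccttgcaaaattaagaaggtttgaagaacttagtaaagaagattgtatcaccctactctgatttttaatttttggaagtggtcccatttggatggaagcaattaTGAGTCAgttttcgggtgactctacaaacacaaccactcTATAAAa
Timp1: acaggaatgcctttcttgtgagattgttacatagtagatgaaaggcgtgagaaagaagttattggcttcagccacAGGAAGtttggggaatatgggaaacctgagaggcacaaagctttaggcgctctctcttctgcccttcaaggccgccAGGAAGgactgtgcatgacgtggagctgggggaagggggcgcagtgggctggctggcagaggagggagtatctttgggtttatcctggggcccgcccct
Adamts1: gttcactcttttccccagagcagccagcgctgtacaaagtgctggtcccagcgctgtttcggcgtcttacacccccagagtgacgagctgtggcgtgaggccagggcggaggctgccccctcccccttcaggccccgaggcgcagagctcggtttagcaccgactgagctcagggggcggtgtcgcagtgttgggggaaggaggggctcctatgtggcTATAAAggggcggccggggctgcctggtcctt
The capitals mark an ETS, an AP-1 and a TATA match in *Mmp3*, 2 ETS matches in *Timp1* and a TATA match in *Adamts1*. The AP-1 letters of *Mmp3*, which read TGAGTCA because the match is on the other strand, lie 46 to 40 bases before its start, and no other of the 7 windows held them, against 4.46% of 32817 windows of all genes. ETS letters were in 5 of the 7 windows and in 29.5% of all windows, and the 5 include *Adam17*, which did not pass the test, as well as *Timp1*. STAT letters were in none of the 7 and in 7.01% of all windows. TATA letters were in the windows of *Mmp3* and *Adamts1* and in 12.4% of all windows. A match is a description of the letters and not of a bound site.

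Values are FPKM, read fragments divided by gene length and by library size, so that levels of genes can be compared per length. Depth was 18965090 to 26832535 reads in a retina, as recovered from the FPKM. Rod markers were high in the NL retinas, with a summed level of 7887 to 9633 FPKM for 7 genes, and the same sum was 1162 to 2369 FPKM in the LD retinas. The study saw no obvious degeneration in retinas after 1 day of this light, and significant degeneration after 3 days. The part of rod loss in the lower sum was not tested. Between LD-4 and LD-6, LD-1 and LD-7, and NL-5 and NL-7 the chi-square per gene was 2.65 to 3.65, and it was at least 12.2 for any other pair of retinas of 1 group. These 3 pairs were closer than other pairs but not within sampling noise, for which the value would be near 1, and all 10 samples were kept.

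The test was limma on log2(FPKM + 0.1). A gene was called if its Benjamini-Hochberg adjusted p was below 0.01 and it differed by more than 2-fold. By this rule 5 of the 10 genes, *Timp1*, *Mmp3*, *Adamts4*, *Adamts1* and *Mmp14*, were higher after LD, and none was lower (also none at an unadjusted p under 0.05 in limma or among the calls of limma-voom on the recovered reads). Of all 24508 genes tested, 6.51% were called, 4.13% as higher and 2.37% as lower. With an adjusted p under 0.05 and no minimum fold change, 8 of the 10 genes were higher, against 14.5% of all genes. *Mmp9* and *Adam17* were the other two. The 5 LD values lay above all 5 NL values for 7 of the 10 genes, against 11.8% of all genes tested, and in 22.4% of all genes the groups did not overlap in one direction or the other. The median log2 fold change was 0.97 over the 10 genes and -0.01 over all genes tested, and it was also 0.97 when *Mmp3* was set to its lower bound (given with its values). *Mmp3* passed the filter on low values, at least 0.1 FPKM in at least 5 retinas, only through the LD retinas. The 10 genes, and the lists of related genes below, were chosen with earlier results of these data known. Their counts beside those of all genes are therefore descriptions. In bulk tissue, more cells of a type and more RNA per cell cannot be told apart.

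**Figure D1:**
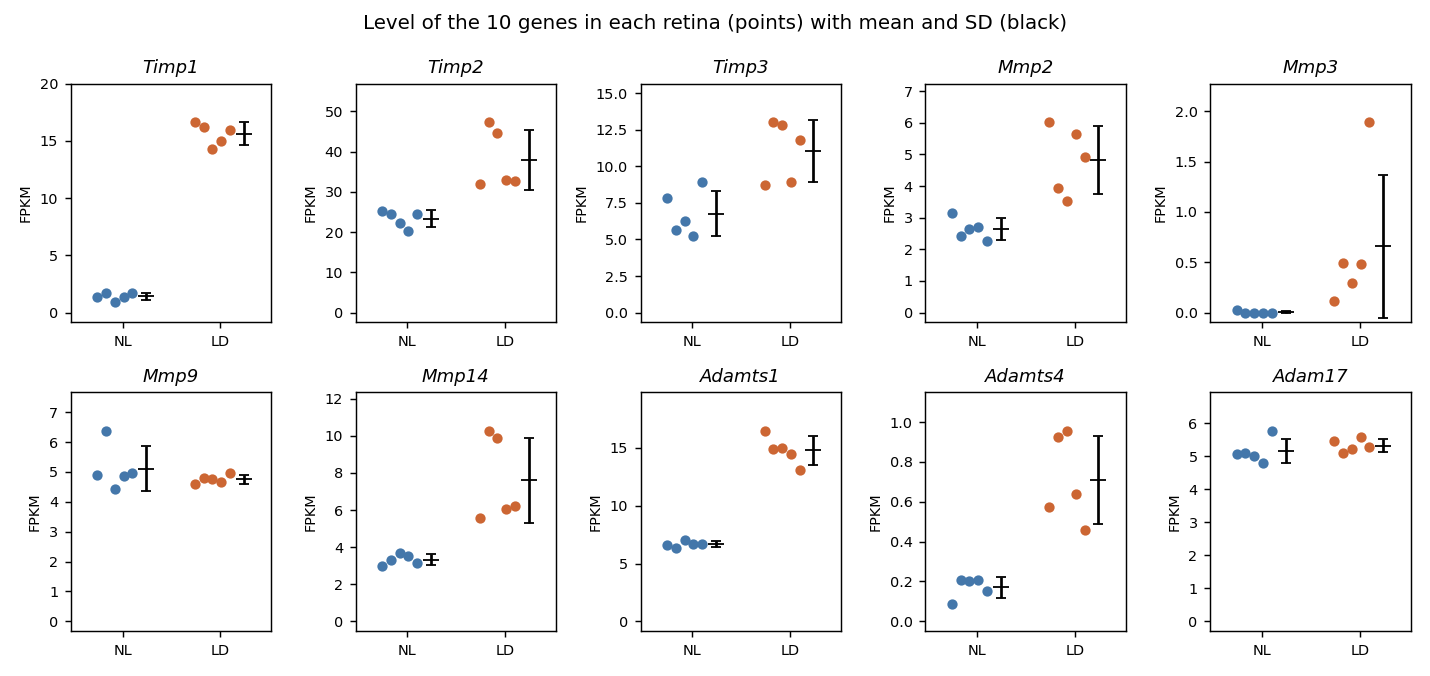
FPKM (vertical axes, linear, each with its own range) of the 10 genes in the 5 NL (blue) and 5 LD (orange) retinas, 1 point per retina in label order, with the mean and SD in black (the lower bar of *Mmp3* after LD passes 0). *Timp1* has NL points of 0.943 to 1.75 FPKM and LD points of 14.2 to 16.7 FPKM, while the points of *Mmp9* and *Adam17* overlap between groups.

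*Timp1* encodes a secreted inhibitor of many MMPs and had the smallest adjusted p of the 10 genes. Its level in the NL retinas 1, 4, 5, 7 and 8 was 1.37, 1.70, 0.943, 1.33 and 1.75 FPKM, and in the LD retinas 1, 4, 6, 7 and 8 it was 16.7, 16.2, 14.2, 15.0 and 16.0 FPKM. The groups were far apart, and the LD retinas were close to each other. The mean rose from 1.42 ± 0.325 to 15.6 ± 0.979 FPKM (SD, n = 5 retinas each), which is 11-fold. The log2 fold change was 3.40 (limma adjusted p = 8.97e-08, SE 0.14). In the two-sided exact permutation test the p was 0.00794, the smallest that 5 retinas against 5 allow. The value rests on 17 to 40 reads in the NL and 283 to 361 in the LD retinas. *Timp1* (ENSMUSG00000001131) lies on chromosome X from 20870166 to 20874735 (GRCm38), inside the gene of synapsin, *Syn1*, on the opposite strand. The models share no exonic base, and *Syn1* was at 30.2 ± 2.46 FPKM in NL and 30.1 ± 2.26 FPKM in LD retinas (SD, n = 5 each).

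*Timp2* was the most abundant of the 10 genes in both groups. Its product inhibits MMPs and, together with the *Mmp14* product at the cell surface, takes part in activation of the *Mmp2* product. *Timp2* was at 25.3, 24.5, 22.1, 20.2 and 24.5 FPKM in the NL retinas and at 32.1, 47.4, 44.7, 33.1 and 32.8 FPKM in the LD retinas, in label order. All LD values were above all NL values, with LD-4 and LD-6 above the other three. The log2 difference was 0.69 (limma adjusted p = 0.00183, SE 0.12), under the 2-fold limit. *Timp2* lies on chromosome 11 from 118301069 to 118355740.

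*Timp3* encodes an inhibitor that stays bound to the matrix and also acts on ADAM and ADAMTS proteases. Its NL values of 7.81, 5.65, 6.25, 5.21 and 8.90 FPKM overlapped with the LD values of 8.70, 13.1, 12.9, 8.95 and 11.8 FPKM, since LD-1 was below NL-8. The log2 fold change was 0.71 (limma adjusted p = 0.010, SE 0.17), and the two-sided exact permutation test gave p = 0.0159. The limma adjusted p was above 0.05 if each of the closest pairs was averaged (0.0541). It was also above 0.05 in the 8 retinas of shared number, without a replicate block (0.0599) and with it (0.0686). *Timp3* is known to be abundant in the retinal pigment epithelium (RPE), a layer next to the neural retina. The summed level of 7 RPE markers was 84.8, 64.9, 60.2, 45.9 and 143 FPKM in the NL retinas and 54.6, 88.9, 91.7, 67.7 and 102 FPKM in the LD retinas. NL-8 and NL-1 were the highest NL retinas both in *Timp3* and in the RPE sum, and LD-1 and LD-7 were the lowest LD retinas in both. LD-1 and LD-7 also belong to the closest pairs of retinas. Most of the sum was *Ttr*, at 44.0 of 54.6 FPKM in LD-1 and 56.4 of 67.7 FPKM in LD-7. Among the LD retinas *Lrat* was also lowest in LD-1 and LD-7. *Best1* was instead highest in these retinas, and *Tyrp1* and *Mlana* were highest in LD-1. *Rpe65* was lowest in LD-1, but in LD-7 it was above LD-4 and LD-6. None of the 7 RPE markers was called changed in limma or in limma-voom on the recovered reads, against 6.51% of all genes, and none was at 0 in a retina. In limma 1 was lower at an unadjusted p under 0.05, against 19.1% of all genes. The part of RPE tissue in the values of *Timp3* was not tested. *Timp3*, on chromosome 10 from 86300372 to 86349506, lies inside *Syn3* on the opposite strand and shares 1733 of its 8144 exonic bases with it. Whether counting used strand is not given in the sources used here. *Syn3* itself was low, at 1.15 ± 0.0423 FPKM in NL and 1.22 ± 0.0530 FPKM in LD retinas (SD, n = 5 each).

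*Timp1* made up a larger share of the TIMP transcripts after LD. Of the summed FPKM of *Timp1*, *Timp2*, *Timp3* and *Timp4*, *Timp1* made up 4.46% ± 0.869 under NL and 24.5% ± 3.87 after LD (SD, n = 5 each). The share of *Timp2* was 73.7% ± 2.77 under NL and 58.2% ± 3.60 after LD. The sum itself was 31.7 ± 3.53 FPKM in NL and 64.9 ± 9.0 FPKM in LD retinas. *Timp4* was low, at 0.227 ± 0.0366 and 0.191 ± 0.0337 FPKM. The log2 ratio of *Timp1* to *Timp2* within a retina was -3.97 ± 0.29 under NL and -1.26 ± 0.32 after LD, a difference of 2.71 (standard error 0.19, exact permutation p = 0.00794, adjusted p = 0.0278 over 7 ratios). For *Timp1* to *Timp3* the difference was 2.69 (standard error 0.22, with the same exact permutation p of 0.00794). For *Timp2* to *Timp3* it was -0.02 (standard error 0.13, exact permutation p = 0.881). These 7 ratios were chosen after the values were seen.

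**Figure D2:**
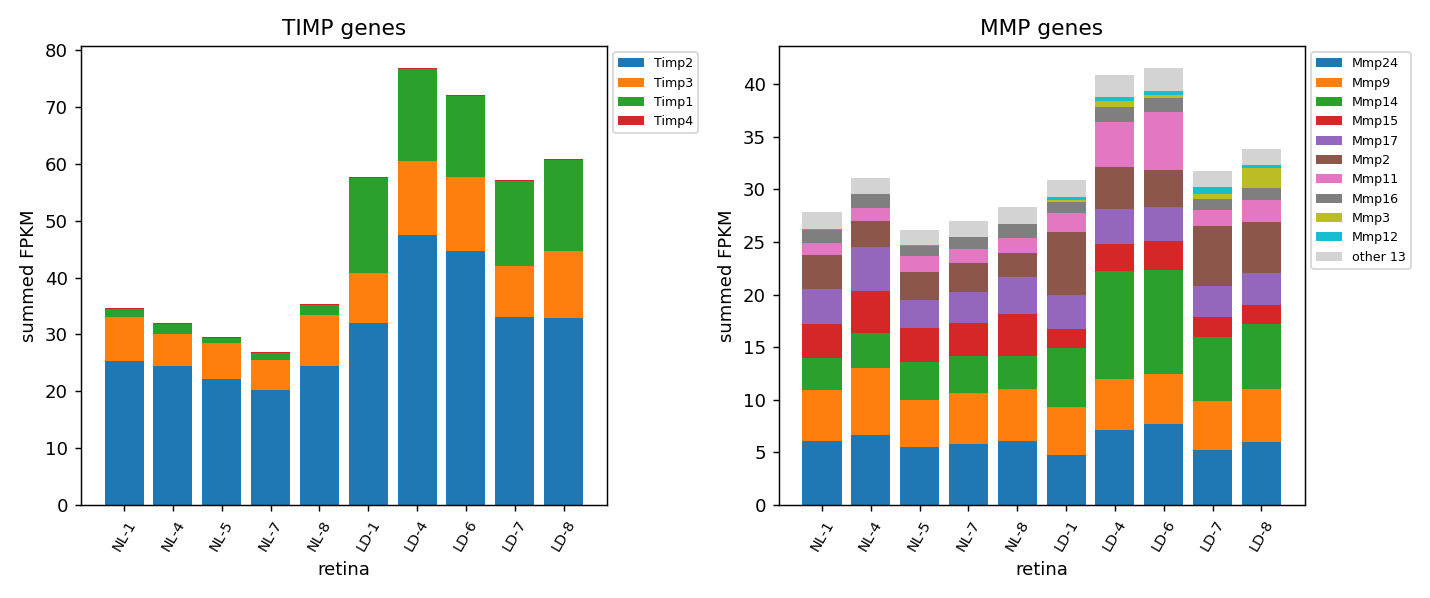
Stacked bars of the FPKM of the 4 TIMP genes (left) and of the 23 MMP genes (right, with 13 MMP genes of low level joined in grey) in each of the 10 retinas, from 0. The *Timp1* segment is thin in the NL bars and makes up 19.8% to 28.9% of the LD bars, and the LD bars of the MMP genes have a larger *Mmp14* and a smaller *Mmp15* segment.

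Of the proteases, *Mmp14* encodes a membrane-bound MMP that cuts collagen at the cell surface. Its level was 3.00, 3.33, 3.66, 3.55 and 3.12 FPKM in the NL retinas and 5.59, 10.3, 9.88, 6.04 and 6.23 FPKM in the LD retinas. Every LD value was above every NL value, and LD-4 and LD-6 again stood above the other LD retinas. The mean rose from 3.33 ± 0.279 FPKM to 7.60 ± 2.28 FPKM (n = 5 each, SD), or on the log2 scale by 1.12 (limma adjusted p = 8.02e-04, SE 0.17). When the pseudocount was 1, the difference was 0.95 and under 2-fold. Without LD-4 it was 1.001 and without LD-6 it was 1.016, both only just over 2-fold. *Mmp14* lies on chromosome 14 from 54431612 to 54445364.

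*Mmp2* encodes gelatinase A, which cuts denatured collagen and collagen of basement membranes. It was at 3.16, 2.43, 2.64, 2.70 and 2.27 FPKM in the NL retinas and at 6.03, 3.95, 3.51, 5.64 and 4.92 FPKM in the LD retinas. The groups did not overlap, but here LD-4 and LD-6 were the lowest LD retinas. The log2 fold change was 0.82 (limma adjusted p = 0.00243, SE 0.15), under 2-fold. *Mmp2* lies on chromosome 8 from 92827291 to 92853420. The log2 ratio of *Mmp14* to *Timp2* was higher after LD by 0.43 (standard error 0.13, exact permutation p = 0.0159, adjusted p = 0.0370 over the 7 ratios). That of *Mmp2* to *Timp2* differed by 0.13 (standard error 0.28, exact permutation p = 0.635), and that of *Mmp2* to *Mmp14* by -0.30 (standard error 0.34, exact permutation p = 0.405).

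*Mmp9* encodes the other gelatinase, which is stored in neutrophils and is made by many cells in inflammation. It was at 4.90, 6.39, 4.44, 4.87 and 4.95 FPKM in the NL retinas and at 4.59, 4.78, 4.77, 4.65 and 4.96 FPKM in the LD retinas. The groups overlapped, and all values but that of NL-4 lay within a narrow range. On the log2 scale LD differed from NL by -0.09, with a 95% interval of -0.29 to 0.10 (adjusted p = 0.486 in limma), and it was slightly above 0 in TPM and without the authors' factor per retina. A change of 2-fold is outside this interval. *Mmp9* lies on chromosome 2 from 164940780 to 164955850. Neutrophil markers were low in both groups, with a summed level of 0.909 to 1.44 FPKM for 8 genes under NL and 0.898 to 2.24 FPKM after LD. Of these, *Ly6g* was at 0 in 3 of 5 NL and 3 of 5 LD retinas. *Csf3r* was above 0 in every retina, at 0.40 ± 0.11 FPKM in NL and 0.62 ± 0.38 FPKM in LD retinas. *S100a8* was at 0 in 3 NL retinas and in no LD retina. Both were named after their values were seen. The part of neutrophils in the values of *Mmp9* was not tested.

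*Mmp3* encodes stromelysin, a protease that cuts many matrix proteins and activates other MMPs. It had 1 read in NL-1 and no read in the other NL retinas, and 5, 18, 12, 20 and 76 reads in the LD retinas 1, 4, 6, 7 and 8. The LD levels were 0.114, 0.493, 0.298, 0.488 and 1.90 FPKM, so that LD-8 held more than the other LD retinas together. The groups did not overlap. Against the level of 3 reads in each NL retina, a mean of 0.0763 FPKM, the LD mean of 0.658 ± 0.71 FPKM (SD, n = 5) was at least 8.62-fold higher, and at least 4.56-fold without LD-8. The log2 difference was 2.44 (limma adjusted p = 0.00364, SE 0.49), and the exact permutation p was 0.00794. The fitted value depends on the pseudocount, at 0.64 (adjusted p = 0.0437, not called) with 1 and 5.12 with 0.01. The call was also lost if each of the closest pairs was averaged (adjusted p = 0.0112) and without NL-5 or NL-7 (adjusted p = 0.0102 and 0.0103), and without LD-8 the difference was 1.99 (adjusted p = 0.00145). Floors cover counting error only. *Mmp3* lies on chromosome 9 from 7445822 to 7455975.

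*Adamts1* encodes a secreted protease that cuts the proteoglycans versican and aggrecan. It was at 6.56, 6.37, 7.06, 6.65 and 6.66 FPKM in the NL retinas and at 16.5, 14.9, 15.0, 14.4 and 13.1 FPKM in the LD retinas. The groups were well apart and both were tight. The mean rose from 6.66 ± 0.253 FPKM to 14.8 ± 1.24 FPKM (n = 5 each, SD), or on the log2 scale by 1.14 (limma adjusted p = 5.72e-07, SE 0.06). With each retina left out in turn it stayed between 1.10 and 1.18. *Adamts1* lies on chromosome 16 from 85793827 to 85803113.

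*Adamts4* encodes another protease that cuts aggrecan and brevican, and its level was much lower. It was at 0.0875, 0.206, 0.205, 0.206 and 0.153 FPKM in the NL retinas and at 0.571, 0.923, 0.957, 0.639 and 0.458 FPKM in the LD retinas, on 9 to 21 and 49 to 103 reads. All LD values were above all NL values. The log2 fold change was 1.56 (limma adjusted p = 6.89e-04, SE 0.24). This difference was 0.54 when the pseudocount was 1. The adjusted p was 0.0126 if each of the 3 closest pairs was averaged. The log2 ratio of *Adamts4* to *Adamts1* did not pass the test (difference 0.42, standard error 0.21, exact permutation p = 0.103). *Adamts4* lies on chromosome 1 from 171250421 to 171260637.

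*Adam17* encodes the sheddase that releases tumour necrosis factor and many other membrane proteins. Its values of 5.08, 5.09, 5.01, 4.79 and 5.78 FPKM in the NL retinas and 5.45, 5.10, 5.22, 5.58 and 5.27 FPKM in the LD retinas overlapped. On the log2 scale the difference was 0.05, with a 95% interval of -0.08 to 0.18 (adjusted p = 0.596 in limma). A change of 2-fold is outside this interval as well. *Adam17* lies on chromosome 12 from 21323509 to 21373632.

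Ordered by level, the NL retinas had *Timp2* first, at 23.3 FPKM, then *Timp3* (6.77) and *Adamts1* (6.66), *Adam17* (5.15) and *Mmp9* (5.11), *Mmp14* (3.33) and *Mmp2* (2.64), *Timp1* (1.42), *Adamts4* (0.171) and *Mmp3*. The pairs *Timp3* and *Adamts1*, *Adam17* and *Mmp9*, and *Mmp14* and *Mmp2* overlapped between retinas, and the other neighbours did not. After LD, *Timp2* was still first at 38.0 FPKM, and *Timp1* had moved from the eighth to the second place at 15.6 FPKM. It was followed by *Adamts1* (14.8), *Timp3* (11.1) and *Mmp14* (7.60), where each overlapped with the next. *Adam17* (5.32), *Mmp2* (4.81) and *Mmp9* (4.75) overlapped in the same way, as did *Adamts4* (0.71) and *Mmp3* (0.658).

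The LD retinas differed among themselves in the same way for several of these genes. LD-4 with LD-6 and LD-1 with LD-7 are closest pairs over all genes, with a chi-square per gene of 2.65 and 3.65. Agreement within such a pair therefore does not count as that of independent retinas. In LD-4 and LD-6, *Mmp14* was 0.48 and 0.42, *Adamts4* 0.38 and 0.43, and *Timp2* 0.34 and 0.26 above the mean of the LD retinas on the log2 scale, and *Mmp2* was 0.25 and 0.41 below it. *Timp1* stayed within 0.13 of its LD mean in every LD retina. The same 2 retinas had the lowest summed rod markers, 1162 and 1240 FPKM, where the remaining LD retinas had 1864 to 2369 FPKM. They also had the highest sum of 7 Muller glia markers, 805 and 834 against 591 to 638 FPKM, and of 7 endothelial markers, 97.1 and 97.3 against 60.2 to 64.0 FPKM. The Muller glia sum was 1075 to 1303 FPKM in the NL retinas, and its markers did not move together. After LD, *Glul* was called lower and *Vim* was called higher. *Glul* was at 156 and 170 FPKM in LD-4 and LD-6, against 158 to 177 FPKM in the remaining LD retinas. The microglia and macrophage sum of 9 markers was highest in LD-1 and LD-7, at 106.9 and 91.8 FPKM, the retinas with the most *Mmp2*. The match did not hold in LD-8. It had the lowest such sum, 43.0 FPKM, against 63.2 in LD-4 and 64.8 in LD-6. Its *Mmp2* level of 4.92 FPKM was above the 3.95 and 3.51 FPKM of those retinas. The part of cell make-up in these differences was not tested.

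**Figure D3:**
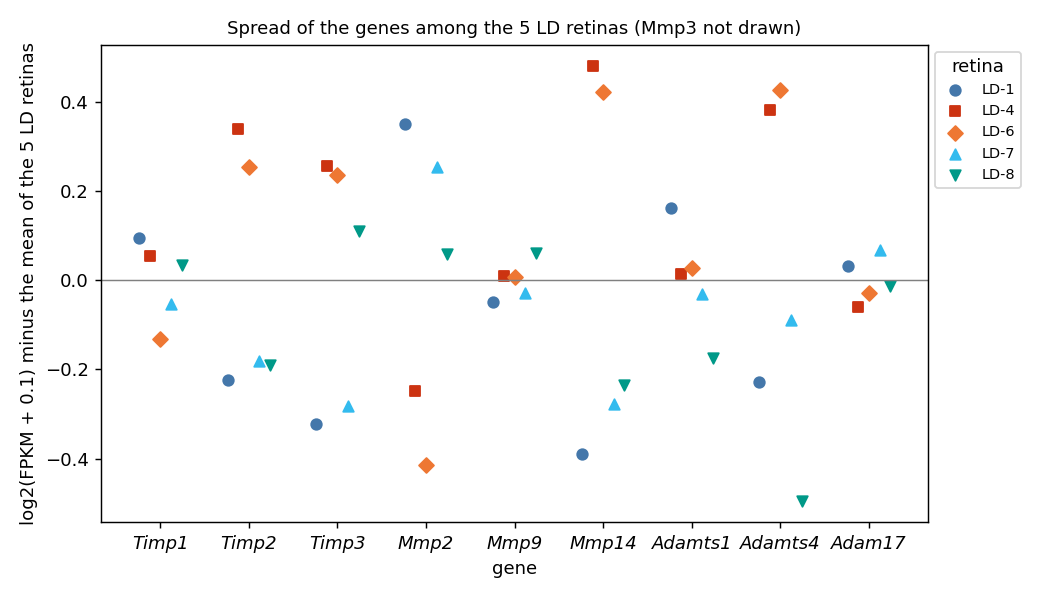
Deviation of log2(FPKM + 0.1) from the mean of the 5 LD retinas (vertical axis) for 9 genes (horizontal axis), with 1 symbol per LD retina; *Mmp3*, whose deviations reach 1.81, is not drawn. LD-4 and LD-6 lie together at the top for *Timp2*, *Timp3*, *Mmp14* and *Adamts4* and at the bottom for *Mmp2*, and the *Timp1* symbols lie near 0.

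Among the other 19 MMP genes, 10 were tested and 1, *Mmp12*, was called, against 6.51% of all genes. The median of the log2 fold changes was 0.10. *Mmp12* encodes macrophage elastase. It passed the filter on low values through the LD retinas, since only NL-1 of the NL retinas reached 0.1 FPKM. Its reads numbered 1 to 16 in the NL and 42 to 105 in the LD retinas, and its log2 fold change of 1.88 (limma adjusted p = 3.12e-04, SE 0.25) was 0.43 with a pseudocount of 1. The microglia and macrophage marker sum was 19.9 to 34.7 FPKM in the NL and 43.0 to 106.9 FPKM in the LD retinas. Of the 9 markers 6 were called higher, against 4.13% of all genes, and no marker was at 0 in a retina. The marker *P2ry12* went the other way, at 2.04 ± 0.278 and 1.32 ± 0.747 FPKM, and did not pass the test (limma adjusted p = 0.121). The part of these cells in the values of *Mmp12* was not tested. *Mmp15*, a membrane-bound MMP like *Mmp14*, was lower after LD in all retinas, at 3.52 ± 0.468 FPKM in NL and 2.19 ± 0.452 FPKM in LD retinas (SD, n = 5 each), with a log2 fold change of -0.67 (adjusted p = 0.00511 in limma) under the 2-fold limit. *Mmp11* was at 1.35 ± 0.128 and 3.04 ± 1.80 FPKM, with an adjusted p of 0.0542. Both were chosen for mention after their values were seen.

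*Mmp3* and *Mmp12* belong to a cluster of 10 MMP genes within 427072 bases of chromosome 9, from 7272514 to 7699585. Only these 2 genes of the cluster held more than 17 reads summed over a group. *Mmp3* had 1 read in all NL and 131 in all LD retinas, and *Mmp12* had 28 and 324. *Mmp13* had 12 and 17 reads and *Mmp8*, the neutrophil collagenase, had 1 and 2. No read was listed for *Mmp1a*, *Mmp1b*, *Mmp7*, *Mmp10*, *Mmp20* and *Mmp27*, so these were not detectable at this depth.

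Of 4 other protease inhibitors, 1 was called, against 6.51% of all genes. *A2m*, the gene of alpha-2-macroglobulin, which traps proteases of all classes, rose from 2.48 ± 0.994 FPKM to 43.9 ± 9.20 FPKM (n = 5 each, SD), or on the log2 scale by 4.15 (limma adjusted p = 1.26e-06, SE 0.25). Its mean of 43.9 FPKM after LD was near the 38.0 FPKM of *Timp2*. *Reck*, which encodes a membrane-anchored MMP inhibitor, was at 6.51 ± 0.927 and 4.79 ± 0.677 FPKM, with a log2 fold change of -0.43 (adjusted p = 0.0194 in limma). *Timp4* (-0.17) and *Tfpi2* (0.44) did not pass either threshold. *Reck*, *Timp4* and *Tfpi2* are the remaining members of that list.

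Among the other 23 ADAMTS and ADAMTS-like genes, 20 were tested and 3 were called (15.0%, against 6.51% of all genes). Over the 20 tested, the median log2 fold change was 0.16. *Adamts7*, whose product cuts cartilage oligomeric matrix protein, rose from 0.304 ± 0.0544 to 1.27 ± 0.233 FPKM (log2 1.75, limma adjusted p = 3.73e-05). *Adamtsl4*, whose product binds fibrillin and has no protease activity, rose from 1.56 ± 0.127 to 5.08 ± 1.13 FPKM (log2 1.62, limma adjusted p = 1.59e-05). *Adamts16* was the only called gene of the list that fell, from 0.650 ± 0.139 to 0.168 ± 0.0248 FPKM (log2 -1.47, limma adjusted p = 1.40e-04; SD, n = 5 each). With a pseudocount of 1, *Adamts7* and *Adamts16* were under 2-fold, at 0.79 and -0.49. Of 11 other ADAM genes, 9 were tested and none was called in limma or in limma-voom, against 6.51% of all genes. An unadjusted p under 0.05 was found for 3 of them, all higher, against 19.1% of all genes in each direction. An adjusted p under 0.05 was found for 1, against 27.8% of all genes. That gene, *Adam15*, had a log2 fold change of 0.49 (adjusted p = 0.00335). *Adam10*, the closest relative of *Adam17*, was at 14.5 ± 0.71 and 14.2 ± 0.389 FPKM, with a 95% interval of the log2 fold change of -0.12 to 0.07; it was named after its values were seen.

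**Figure D4:**
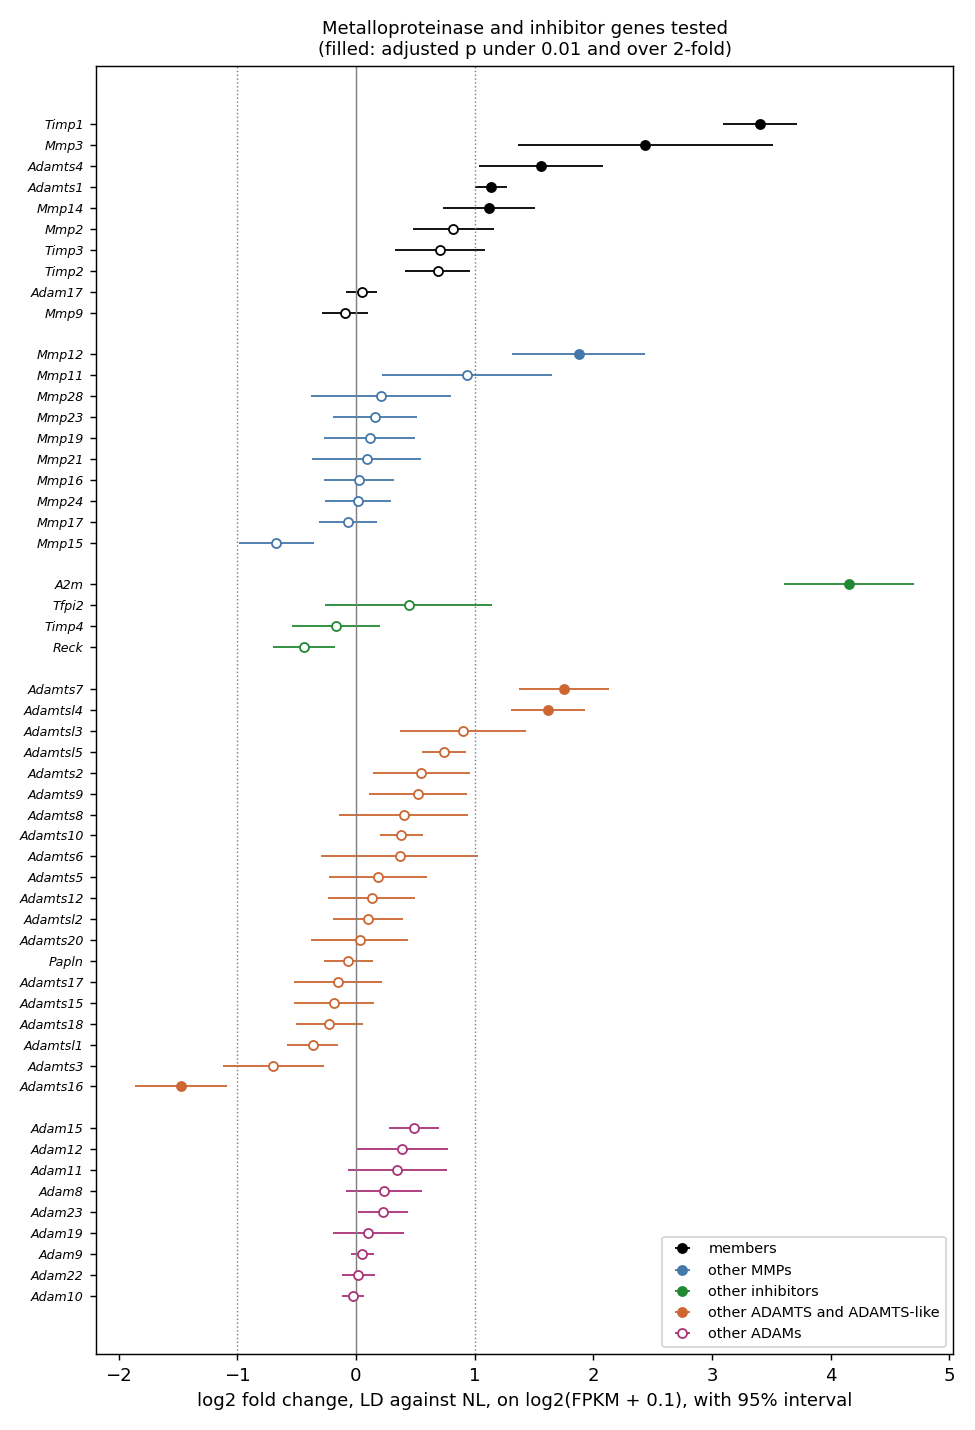
Log2 fold change of LD against NL (horizontal axis, with 95% intervals from limma) for the 10 genes and the tested genes of 4 related lists, ordered within each list, with filled symbols for called genes and dotted lines at 2-fold. *Timp1* at 3.40 and *A2m* at 4.15 lie furthest to the right, *Adamts16* at -1.47 furthest to the left, and no ADAM gene is called.

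The patterns of 3 called genes over the 10 retinas were set against those of 12689 protein-coding genes whose NL or LD mean reached 1 FPKM, by Pearson's r of log2(FPKM + 0.1). These values are descriptions, over retinas that fall into 2 groups. Closest to *Timp1* were *Tubb2b*, *Ifit3b* and *Efhd2*, each with r = 0.996, and 486 genes were above 0.95. Closest to *Adamts4* were *Rnf112* (0.993), *Glud1* (0.990) and *Xpnpep1* (0.990), with 162 genes above 0.95. For *Mmp3* 11 genes were above 0.95, led by *B3gnt5* (0.976), *Ednrb* (0.966) and *Rbm19* (0.963). The *Mmp3* pattern is flat under NL, at 0 FPKM except for 0.0260 FPKM in NL-1. After LD it rests on low values, with LD-8 far above the others at 1.90 FPKM. The *Mmp3* matches and their number therefore cannot be set against those of *Timp1* and *Adamts4*.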

How the data were processed

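RNA-seq of 5 NL and 5 LD retinas was used, with groups and numbers from the sample labels. The authors deposited 1 table of FPKM per gene, in which each retina's library size carries a factor of 0.951 to 0.968 (NL) or 1.04 to 1.07 (LD). RNA was made into libraries with a TruSeq kit. The submitters' processing notes name Bowtie2 2.0.6, TopHat2 2.0.9 and the build mm8, without their roles. The positions in the table are those of GRCm38, since 53499 of 54532 genes had the same start and end in GENCODE M21. The counting program is not given in the sources used here. All values were whole reads within 0.01 reads when multiplied by length, which gave 21343389 to 26832535 reads in the NL and 18965090 to 23378090 in the LD retinas. The table had 0 columns without a sample.

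FPKM is not a count, so limma 3.58.1 (R 4.3.3) with an intensity trend was run on log2(FPKM + 0.1), for genes that reached 0.1 FPKM in 5 or more retinas, with Benjamini-Hochberg adjustment over all genes tested. Fold changes on this scale understate the change of low genes. Single values were compared with two-sided exact permutation tests in Python 3.11.15 with scipy 1.17.1. The limma fit alone was tested on simulated reads with known changes. The changed genes there had a higher NL level than *Mmp3*, *Mmp12* or *Adamts4*, and the simulated retinas were independent of each other. Alternatives were another pseudocount, filter, scaling, model, call rule, block, *Xist* covariate and the averaging or leaving out of retinas. Where no NL retina had more than 3 reads of a gene (*Mmp3*, *Tnf*), the floor was 3 reads in each NL retina. Genes named were the 10 genes, every called gene of the related lists, the gene with the smallest adjusted p of a list with none called, and the 3 genes most alike to each of the 3 called genes with the largest change; others are said to have been named after their values were seen. The 10 genes, the lists and the markers were chosen with earlier results of these data known.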

Additional observations from a re-analysis of the deposited data

Results flagged for a closer look

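Single retinas stood apart from the other 4 of their group by Dixon's criterion in 5 of the 51 groups of values examined, where chance alone gives about 2.55. *Mmp3* was at 0.0260 FPKM in NL-1, which is 1 read, with the other NL retinas at 0. *Mmp3* was also at 1.90 FPKM in LD-8, with the other LD retinas at 0.114 to 0.493 FPKM. *Mmp9* was at 6.39 FPKM in NL-4 and at 4.44 to 4.95 FPKM in the rest of its group. *Mmp12* was at 0.103 FPKM in NL-1, against 0.00651 to 0.0272 FPKM. *Vcam1*, the gene of a vascular adhesion molecule, was at 1.87 FPKM in NL-1, against 1.01 to 1.16 FPKM. NL-1 was thus the retina concerned in 3 of the 5. Its summed microglia and macrophage markers were at 34.7 FPKM and those of the rest of its group at 19.9 to 22.9 FPKM, and the part of these cells in its values was not tested.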

How the results depend on the processing

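Of 616 values of the 26 named genes under 24 alternatives, 573 kept their direction and side of the threshold, 35 lost the call, 6 gained it and 2 changed sign. The 2 were *Mmp9*, at 0.0098 in TPM and 0.038 without the authors' factor per retina, where the median of all genes was 0.11. The number of the 10 genes called, 5, became 2 with a pseudocount of 1, 3 with a minimum of 1 FPKM in 5 retinas (*Mmp3* and *Adamts4* were then not tested), 3 with the closest pairs averaged, 8 with an adjusted p under 0.05 alone, and 4 to 5 with 1 retina left out. That of all genes, 1595, became 816 with a pseudocount of 1, 6818 with an adjusted p under 0.05 alone, 1126 with a minimum of 1 FPKM, 1076 with the closest pairs averaged, and 1379 to 1603 with 1 retina left out. The cause was not tested.

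Same-numbered retinas had correlations of 0.0575, 0.0656, -0.0121 and -0.0893 in their deviations from the group means, so the numbers were not taken to pair them. In the 8 retinas of shared number, a replicate block gave 808 calls over all genes and 2 of the 10 genes, against 1182 and 4 in the same 8 retinas without it. *Mmp3* was called in neither (log2 fold change 2.55), and *Mmp14* (1.05) and *Adamts4* (1.5) were called without the block and not with it.

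Depth limits *Mmp3*, *Mmp12* and *Adamts4*, which had few reads under NL. Cell make-up was measured only by marker genes, and protein and protease activity were not measured.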

Other observations

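Known substrates of the *Adam17* product were examined as a list, since *Adam17* itself did not pass the test. Of 17 such genes, 15 were tested and 8 were called, all higher after LD, against 4.13% of all genes called higher, with a median log2 fold change of 1.00. The list was chosen with earlier results of these data known, so this count is a description and not a test of the substrates. The number called was 3 when the pseudocount was 1 and 5 if each of the closest pairs was averaged. *Tnfrsf1a* and *Tnfrsf1b*, the genes of the receptors for tumour necrosis factor, rose from 2.86 ± 0.486 to 14.1 ± 3.02 FPKM and from 0.189 ± 0.123 to 0.667 ± 0.130 FPKM (SD, n = 5 each). *Tnf* passed the filter on low values only through the LD retinas. It was without reads under NL and had 5 or more in each LD retina. Set against 3 reads per NL retina, its LD mean of 0.302 FPKM was at least 3.60-fold higher. The adhesion genes *Icam1* and *Vcam1* had log2 fold changes of 2.55 and 2.08, and the receptor gene *Il6ra* of 2.07 (adjusted p = 9.73e-05, 8.65e-06 and 2.16e-05 in limma). *Kitl* rose by 1.18 on the log2 scale, and *Hbegf*, a growth factor gene, by 1.00, which was under 2-fold in 9 of the alternatives. *Tnfrsf1b* and *Kitl* lost the call in 4 alternatives each, and *Tnf* (0.37) and *Il6ra* (0.74) lost it with a pseudocount of 1. *Areg* had a log2 fold change of -0.57 (adjusted p = 0.0481) and *Kit* of -0.12 (adjusted p = 0.627); both were named after their values were seen. The summed microglia and macrophage markers, 1 of which (*Csf1r*) is also in this list, were at 19.9 to 34.7 FPKM in the NL and 43.0 to 106.9 FPKM in the LD retinas, with 6 of 9 called higher and none at 0 in a retina. The marker *P2ry12* went the other way, at 2.04 and 1.32 FPKM, and was not called. The part of these cells in the values of the list was not tested, and shedding was not measured.

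Of 8 genes listed for the activation, transport or induction of metalloproteinases, none was called in limma or limma-voom. Against 6.51% of all genes, 0 of 8 is near the background. An unadjusted p under 0.05 was found for 3 that were higher and 1 that was lower, against 19.1% of all genes in each direction. With an adjusted p under 0.05 and no minimum fold change there were 4 of the 8, against 27.8% of all genes. The lower gene was *Bsg*, listed as an inducer and not as an activator or carrier, at 354 ± 17.8 FPKM in NL and 285 ± 27.3 FPKM in LD retinas. Its log2 fold change was -0.32 (limma adjusted p = 0.0133). *Frmd8*, whose product stabilises the complex of *Adam17* with its carriers, had the smallest adjusted p, with a mean of 2.12 ± 0.183 FPKM in NL and 3.71 ± 0.634 FPKM in LD retinas (SD, n = 5 each) and a log2 fold change of 0.77 (limma adjusted p = 6.93e-04, SE 0.12). The carriers themselves, *Rhbdf1* and *Rhbdf2*, had log2 fold changes of 0.79 and 0.70 (adjusted p = 0.0300 and 0.00472). The proprotein convertase gene *Furin* was at -0.02, with a 95% interval of -0.12 to 0.08. The carriers, *Bsg* and *Furin* were named after their values were seen.

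Of 12 genes of matrix proteins, many of them substrates of these proteases, 11 were tested and none was called in limma or limma-voom, which is also near the 6.51% of all genes. An unadjusted p under 0.05 was found for 3 that were higher and 1 that was lower, against 19.1% of all genes in each direction. *Sparc*, which encodes a collagen-binding matrix protein, had the smallest adjusted p, with a mean of 50.9 ± 11.3 FPKM in NL and 86.0 ± 13.2 FPKM in LD retinas (SD, n = 5 each) and a log2 fold change of 0.77 (adjusted p = 0.00303 in limma). The proteoglycan gene *Vcan* was at 0.792 ± 0.709 and 1.02 ± 0.267 FPKM and *Bcan* at 3.11 ± 0.448 and 2.95 ± 0.173 FPKM, and neither passed the test; both were named after their values were seen.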
